A study of Mus musculus with 2 samples.

Results

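The genes of the voltage-gated calcium and sodium channels were compared between the prefrontal cortex (PFC) of mice exposed to chronic mild stress (CMS) and that of control mice. They were chosen by symbol alone, as all mouse genes whose symbol begins with Cacna, Cacnb or Cacng, or with Scn and a digit. The RefSeq gene table used here holds 40 such genes. Probes carried the accessions of 38 of them, 26 calcium channel genes and 12 sodium channel genes, out of 37069 gene names on the arrays. Scn3b and Scn9a were not matched to a probe and are not analysed here. Of the 38 genes, 37 gave a ratio between the groups and 35 were, by the flags of the scanner software, well above background on both arrays.

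The animals of both groups were male C57Bl/6 N sea mice, 9 to 10 weeks old when the experiment began. Control mice (C group) lived in groups under ordinary care. CMS mice lived singly for 4 weeks and met a changing schedule of stressors, among them water deprivation, a wet or tilted cage, light through the night, restraint, forced swimming and footshock, so that CMS and single housing cannot be told apart. Total RNA of the PFC, taken on the day after the last stressor, was pooled within each group and hybridized to 1 one-color Agilent array per group. The series' design text gives 7 mice in a pool, and the methods give 10 mice per group for arrays and qRT-PCR. With 1 pool and 1 array per group there are no replicates, no test between groups could be made and no p-value is given. In a pooled bulk sample, fewer cells of a type and less RNA per cell cannot be told apart.

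A voltage-gated channel opens when the membrane is depolarized. Sodium channels of the Scn family carry the rising phase of the action potential, and their pore subunit is joined by small beta subunits that alter gating and surface level. Calcium channels turn depolarization into calcium entry, which starts transmitter release at terminals and gene expression in the cell body. In most types the pore subunit (Cacna1) is assembled with an extracellular alpha2delta subunit (Cacna2d) and a cytoplasmic beta subunit (Cacnb), while most gamma subunits (Cacng) act in neurons chiefly as transmembrane AMPA receptor regulatory proteins (TARPs).

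Across both arrays, these genes stayed close together in the CMS pool and the C pool. The scaled signal of a probe is its processed intensity after each array was brought to a mean of 2500, and all ratios are CMS over C. The scanner software flags each spot that stands well above background. The lowest scaled signal so flagged, the background limit, was 17.8 in C and 17.6 in CMS. A probe flagged on 1 array alone was set, on the other, at its own signal or at the limit, whichever was higher. Where the limit was used, the fold is a lower bound and the true one may be larger. None of the 37 genes passed 2-fold in either direction, where 2.58% of all 27117 gene names with a ratio did. A ratio past 1.5-fold was found for 1 gene, Scn10a, as a lower bound, against 5.8% of all gene names. The signal in the CMS pool was within 10% of that in the C pool for 25 of the 37 genes (67.6%), and within 20% for 35 (94.6%), with bounds taken at their value. Over all gene names with a ratio these shares were 62.2% and 83.2%. The median log2 ratio was -0.02 for the 25 calcium channel genes, -0.02 for the 12 sodium channel genes and -0.03 for all gene names. Ratios lay above 1 for 14 genes and below 1 for 23, so that 37.8% were above 1 against 41.2% of all gene names.

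Repeated spots give a measure of the error within the arrays. Over 314 probes printed several times per array, the log2 ratios of spots varied with an SD of 0.13. It covers the error between spots of the same arrays, and not that of labeling, between arrays or between mice. Of the channel genes, 23 of 37 lay within 1 such SD of 0 (62.2%, against 58.9% of all gene names). Ratios beyond 2 SD (0.27) were found for 3 genes, Cacng5, Cacna1b and Scn10a, while 19.1% of all gene names lay that far out. The scanner software also gives each signal an error of its own, which amounts to a log2 error between 0.20 and 0.42 for the ratios of the 35 genes measured on both arrays. By that measure 2 genes, Cacng5 and Cacnb2, lay beyond their error, and Cacng5 lay beyond 2 times its error.

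**Figure D1:**
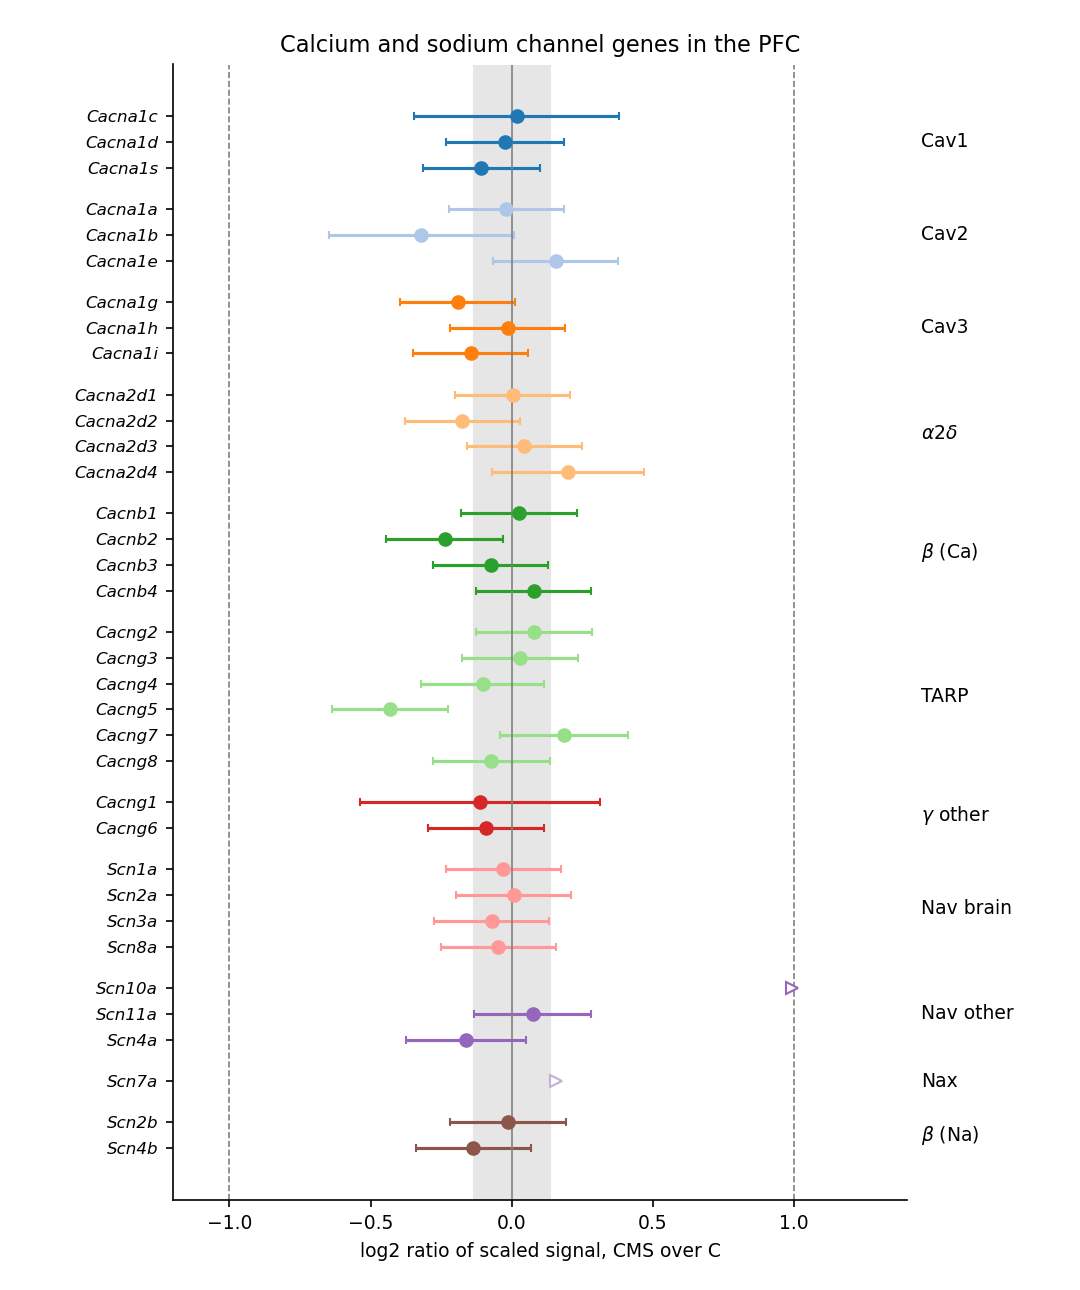
Log2 ratio of scaled signal, CMS over C, for the channel genes described in the text, 1 array per group, ordered by subunit type. Bars are the scanner software's error and not a spread between mice. Open triangles are genes not flagged as above background in C, Scn10a at a lower bound and Scn7a at its own signals. The grey band is 1 SD between spots (0.13) and dashed lines mark 2-fold. Most genes sit in or beside the grey band, with Cacng5 at -0.43 and Scn10a at 0.99 farthest from 0.

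Promoter sequence is shown for the 3 genes whose ratios lay farthest from 0, Cacng5 and Cacna1b below it and Scn10a above it. Each window runs from 250 bases before to 50 bases after a RefSeq transcript start in GRCm38.p6, 5′ to 3′ along the gene, and all 3 genes are on the minus strand. The Cacng5 window is chr11:107915006-107915305, that of Cacna1b is chr2:24763103-24763402 and that of Scn10a is chr9:119718983-119719282. Capitals mark TGACTCA, the only match found in these windows to the motifs that were searched.
Cacng5: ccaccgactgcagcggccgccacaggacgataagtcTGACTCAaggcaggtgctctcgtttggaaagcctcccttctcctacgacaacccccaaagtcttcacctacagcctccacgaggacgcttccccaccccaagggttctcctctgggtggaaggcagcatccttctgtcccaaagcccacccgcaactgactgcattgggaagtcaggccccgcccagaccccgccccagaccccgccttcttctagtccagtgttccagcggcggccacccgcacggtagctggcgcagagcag
Cacna1b: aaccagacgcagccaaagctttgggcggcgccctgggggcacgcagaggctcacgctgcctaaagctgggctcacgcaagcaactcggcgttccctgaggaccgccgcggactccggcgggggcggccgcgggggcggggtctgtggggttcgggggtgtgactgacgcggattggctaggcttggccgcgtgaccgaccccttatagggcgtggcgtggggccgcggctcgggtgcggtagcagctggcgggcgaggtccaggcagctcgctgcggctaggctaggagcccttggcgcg
Scn10a: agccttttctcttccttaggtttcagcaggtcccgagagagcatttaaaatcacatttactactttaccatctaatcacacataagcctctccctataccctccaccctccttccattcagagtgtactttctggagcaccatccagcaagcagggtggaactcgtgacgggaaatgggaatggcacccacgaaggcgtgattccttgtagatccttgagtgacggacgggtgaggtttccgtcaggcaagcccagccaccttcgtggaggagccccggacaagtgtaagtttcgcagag

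TGACTCA is the site of AP-1, the dimer of Fos and Jun proteins, and it starts 214 bases before the transcript start of the window shown. Cacng5 has 2 windows in the table, and the other holds no match to it. The letters TGACTCA, TGACGTCA (the cAMP response element) and GCGTGGGCG (the Egr1 site) were searched on both strands and TATAAA on the strand of the gene, and these motifs do not overlap one another in the windows shown. Promoters of 30 of the 40 channel genes were in the RefSeq table, with 41 windows. TGACTCA was found in 1 of the 30 genes, Cacng5, and in 5.95% of all 27025 genes with a window. TGACGTCA was found in 0 of 30, against 2.03% of all genes. GCGTGGGCG was found in 1 of 30, Scn7a, against 0.707%, and TATAAA in 2 of 30, Cacna1d and Scn2a, against 9.77%. A match describes the letters of a window and not a bound site.

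The CpG content of the promoters was set beside that of all genes, with no test. The observed over expected number of CpG, taken from the richest window of a gene, was above 0.6 for 16 of 30 channel genes (53.3%) and for 38.3% of all genes, with medians of 0.61 and 0.41. All 4 calcium channel beta subunit genes were above 0.6, from 0.84 for Cacnb1 to 0.96 for Cacnb4. Among the sodium channel genes the value ran from 0.14 for Scn4a and Scn7a to 1.05 for Scn8a. The median log2 ratio was -0.04 over the 16 CpG-rich genes and -0.00346 over the 12 others with a ratio.

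The L-type pore subunits, which couple depolarization to gene expression in neurons and to contraction in muscle, differed little between the pools. Cacna1c, the main L-type pore of neurons and heart, had a scaled signal of 27.5 in C and 27.8 in CMS, a log2 ratio of 0.02. Its 1 probe lay close to the background limit, with a software error of 0.36, so that a change could be missed. Cacna1d, an L-type pore that opens at less depolarized potentials, had 221 in C and 218 in CMS, a log2 ratio of -0.02, and -0.10 on a second probe. Cacna1s, the pore of the skeletal muscle channel, had 262 in C and 243 in CMS, a log2 ratio of -0.11, and 0.08 on a second probe. All 3 ratios of the brighter probes lay inside their software error. Cacna1f, the L-type pore of the retina, was flagged on none of the arrays and gave no ratio.

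The P/Q-, N- and R-type pores open at presynaptic terminals and dendrites, and each of their ratios lay inside its software error. Cacna1a, the P/Q-type pore, gave 2260 in C and 2230 in CMS, a log2 ratio of -0.02, and 0.05 on a second probe. The signal of Cacna1b, the N-type pore, was 35.4 in C and 28.4 in CMS, a log2 ratio of -0.32 with a software error of 0.33. Cacna1e, the R-type pore, gave 99.5 in C and 111 in CMS, a log2 ratio of 0.16 with a software error of 0.22. The Cacna1b signal lay near the background limit. Of the 1356 gene names in the same of 20 bins of signal, 55.4% had a ratio at least as far from 0.

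All 3 T-type pores, which open near rest and support burst firing, had ratios below 1, with a median of -0.15, although Cacna1h lay above 1 under 75th percentile scaling, quantile normalization with or without normexp, the mean of all probes and centring by signal. The signal of Cacna1g was 2426 in C and 2125 in CMS, a log2 ratio of -0.19, and that of Cacna1i was 4827 in C and 4364 in CMS, a log2 ratio of -0.15. Both kept this sign under every alternative tried. Cacna1h gave 3070 in C and 3041 in CMS, a log2 ratio of -0.01. Second probes gave -0.10 for Cacna1g, 0.02 for Cacna1i and 0.11 for Cacna1h, so that the probes of the latter pair of genes differed in sign. In the same bin of signal, 8.93% of gene names were as far from 0 as Cacna1g and 18.1% as far as Cacna1i.

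The alpha2delta subunits raise the number of channels at the membrane, and Cacna2d1 and Cacna2d2 bind the gabapentinoid drugs. Cacna2d1 had a scaled signal of 9730 in C and 9751 in CMS, a log2 ratio of 0.00307, and -0.15 on a second probe. Cacna2d2 had 3611 in C and 3198 in CMS, a log2 ratio of -0.18, and 0.02 on a second probe. The signal of Cacna2d3 was 3253 in C and 3354 in CMS, a log2 ratio of 0.04. That of Cacna2d4, known from the retina, was 51.7 in C and 59.4 in CMS, a log2 ratio of 0.20. The values of these 4 genes ran from -0.18 to 0.20, each inside its software error on the brighter probe.

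The cytoplasmic beta subunits carry the pore to the membrane and set its gating. Cacnb1, the beta subunit of skeletal muscle that is also made in brain, gave 664 in C and 676 in CMS, a log2 ratio of 0.03. For Cacnb2, the main beta subunit of heart, the signal was 233 in C and 198 in CMS, a log2 ratio of -0.24 with a software error of 0.21. The ratio of Cacnb2 was -0.12 on a second probe and was below 1 under every alternative tried. Cacnb3 gave 5791 in C and 5498 in CMS, a log2 ratio of -0.07, and Cacnb4, mutated in the lethargic mouse, gave 3555 in C and 3750 in CMS, a log2 ratio of 0.08. Apart from Cacnb2, the pools overlapped within the software error for these genes.

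Among the TARPs, which regulate AMPA receptors, Cacng5 stood apart. The probe gave 533 in C and 395 in CMS, a log2 ratio of -0.43 with a software error of 0.20, or a change of -25.9%. Cacng5 stayed below 1 under every alternative, from -0.61 to -0.34. A ratio as far from 0 was found for 9.70% of all gene names and for 2.51% of the 1355 in the same bin of signal. The gene has 1 probe in 1 spot on each array, so no second probe could be set beside it. The other 5 TARPs lay closer to 0. Cacng2, or stargazin, gave 4646 in C and 4907 in CMS, a log2 ratio of 0.08. Cacng3 gave 1440 in C and 1469 in CMS, a log2 ratio of 0.03. The signal of Cacng4 was 115 in C and 107 in CMS, a log2 ratio of -0.10. Cacng7, of the same subtype as Cacng5, gave 83.4 in C and 94.7 in CMS, a log2 ratio of 0.18. The signal of Cacng8 was 206 in C and 196 in CMS, a log2 ratio of -0.07. The median of the 6 TARP genes was -0.02.

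The other gamma subunits lay below the median of all gene names (-0.03), though within 1 SD between spots (0.13) of 0. Cacng1, the gamma subunit of the skeletal muscle channel, gave 23.8 in C and 22.05 in CMS, a log2 ratio of -0.11, close to the background limit. Cacng6 gave 426 in C and 400 in CMS, a log2 ratio of -0.09. Cacng1, Cacng4 and Cacng5 lie close together on chromosome 11, and their log2 ratios ran from -0.43 to -0.10. Cacng7, Cacng8 and Cacng6, which lie close together on chromosome 7, ran from -0.09 to 0.18.

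The 4 sodium channel pores of the brain were closely matched between the pools. Scn1a, which drives firing of fast-spiking interneurons, had a scaled signal of 5584 in C and 5467 in CMS, a log2 ratio of -0.03, and 0.01 on a second probe. Scn2a, found along the axon of excitatory neurons, had 9869 in C and 9912 in CMS, a log2 ratio of 0.00633. Other probes of Scn2a gave 0.15 and -0.06. Scn3a, which is highest before birth, had 1961 in C and 1867 in CMS, a log2 ratio of -0.07. Scn8a, the pore of the mature axon initial segment and nodes, had 6503 in C and 6293 in CMS, a log2 ratio of -0.05. The median of these pores was -0.04, and each ratio lay inside its software error on the probe given here. Other probes of Scn8a and Scn3a, described with the repeated probes, lay beyond theirs.

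A Scn2a probe that is printed 10 times on each array gave the closest view of the error between spots. Its spots had a mean scaled signal of 3124 ± 159 (SD, 10 spots) in the C pool, from 2799 to 3345, and of 2996 ± 142 (SD, 10 spots) in the CMS pool, from 2853 to 3233. The ranges of the arrays overlapped, and the spots varied by 5.10% and 4.75%. Spot by spot, the log2 ratio was -0.06 ± 0.05 (SD, 10 spots), from -0.15 to 0.05, and below 0 at 9 of 10 positions. These spots are repeats of 1 pool on 1 array and give no spread between mice.

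**Figure D2:**
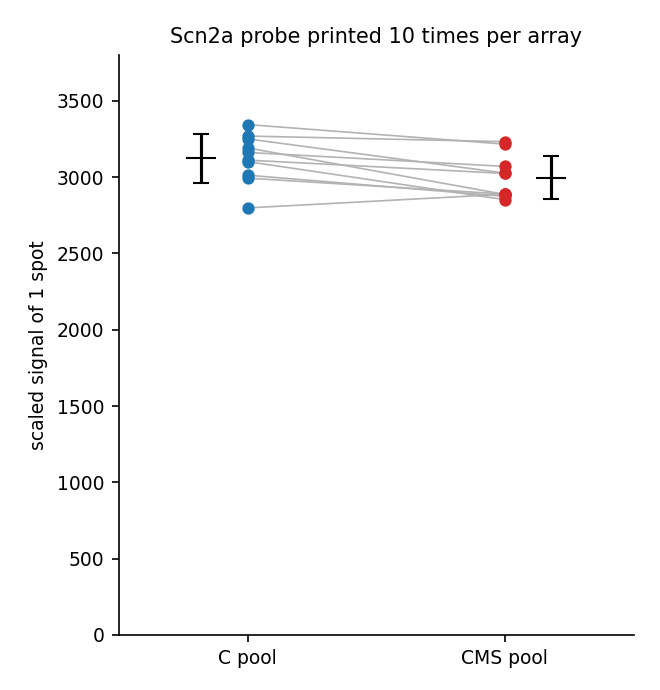
Scaled signal of the 10 spots of 1 Scn2a probe on the C array and the CMS array. Lines join spots at the same position, and the bars are the mean and SD over spots, 3124 ± 159 and 2996 ± 142. The spots of both arrays overlap, and 9 of 10 lines run slightly downward.

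The sodium channel pores best known outside the brain included the ratio farthest from 0. Scn10a, the pore of nociceptive sensory neurons, gave 14.4 in C, where it was not flagged, and 35.4 in CMS, where it was. Set against the background limit of 17.8, the CMS pool gave a rise of at least 1.99-fold (log2 ratio 0.99). In the same bin of signal, 16.2% of gene names lay as far from 0. Under normexp background correction with quantile normalization the log2 ratio was 0.30, which ends the 1.5-fold call, whereas scaling to the 75th percentile or the trimmed mean, the deposited table and dim probes at their own signal took it just past 2-fold or beyond (1.01 to 1.30). Scn11a, a sensory neuron pore encoded close to Scn10a on chromosome 9, gave 178 in C and 187 in CMS, a log2 ratio of 0.07. Scn4a, the skeletal muscle pore, gave 148 in C and 132 in CMS, a log2 ratio of -0.16. Scn7a, a sodium level sensor of glia and neurons, had 22.2 in C, where it was not flagged, and 24.7 in CMS. Its own signal in C was above the limit and was used, which gave a log2 ratio of 0.16, inside its software error of 0.46.

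Markers of the peripheral cells in which some of these channels are best known were read on the same arrays. Of 7 sensory neuron markers 3 gave a ratio, all below 1, from -0.52 to -0.02 with a median of -0.47. The ratio of -0.02 was that of the brightest of the 3. The first of the 3, Prph, gave 39.4 in C and 28.4 in the CMS pool, near the background limit. The summed signal of those 3 was 200 in C and 172 in the CMS pool, while Trpv1, Mrgprd and Isl1 did not clear background on any array. Of 9 skeletal muscle markers 6 gave a ratio, 3 above 1 and 3 below, from -0.69 to 0.44 with a median of 0.07 (Acta1, 575 in C and 636 in CMS), and Ckm, Mylpf and Mb did not clear background. Of 7 heart muscle markers 5 gave a ratio, 1 above 1 and 4 below, from -0.91 (Myh6) to 0.10 with a median of -0.17. Of 6 retina markers 2 gave a ratio, and Crx was higher in CMS by at least 2.05-fold.

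The sodium channel beta subunits, which also act as adhesion molecules, were closely matched. Scn2b gave 15342 in C and 15202 in CMS, a log2 ratio of -0.01. Scn4b, the subunit tied to resurgent current, gave 3387 in C and 3084 in CMS, a log2 ratio of -0.14, below 1 under every alternative. Scn2b and Scn4b lie close together on chromosome 9.

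Several genes were read by more than 1 probe, which shows how far a ratio depends on the probe. There were 13 genes with 2 or 3 probes well above background on both arrays, 28 probes in all. The range of log2 ratios within a gene had a median of 0.12, close to the SD between spots, and in 9 of the 13 genes the probes lay on both sides of 0. The range was largest for Scn8a, 0.41, with ratios of -0.16, -0.05 and 0.25. For Scn3a, 2 probes gave -0.07 and -0.15. Another Scn3a probe had 34.4 in C and 17.9 in CMS, where it was not flagged, a log2 ratio of -0.95 with a software error of 0.48.

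**Figure D3:**
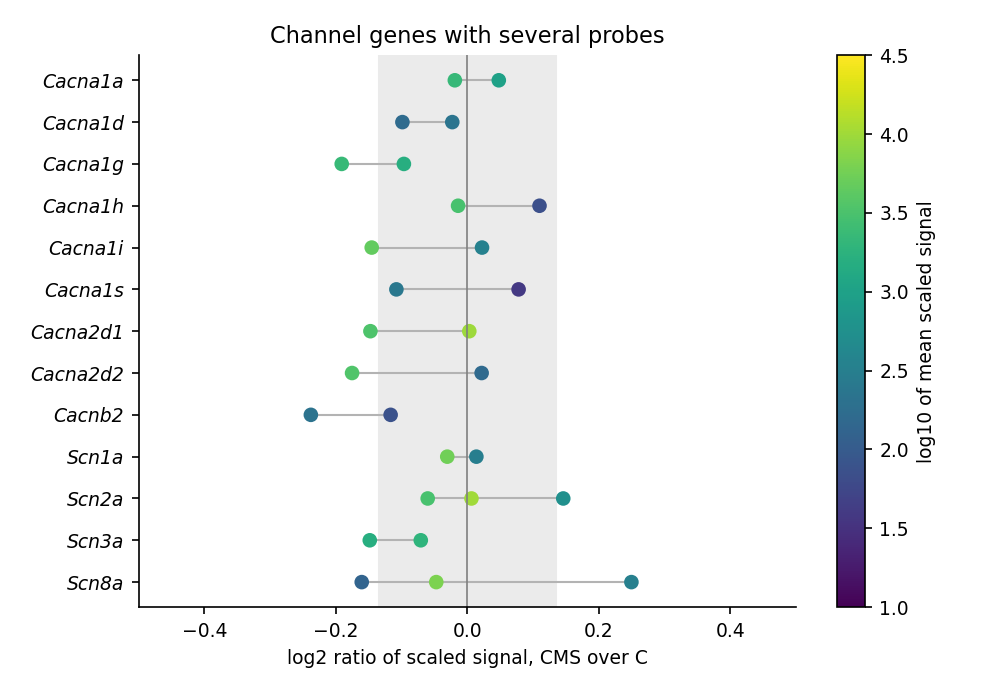
Log2 ratio, CMS over C, of each probe of the 13 channel genes with several probes well above background on both arrays. Each point is 1 probe colored by the log10 of its mean scaled signal, lines join the probes of a gene and the grey band is 1 SD between spots (0.13). Probes of 9 genes fall on both sides of 0, and Scn8a has the widest range, 0.41.

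The spread of the ratios was wider at low signal. Over a mean signal of 1000, the 19 channel genes ran from -0.19 to 0.08 with an SD of 0.08, against an SD of 0.24 over 9725 gene names, of which 0.638% passed 1.5-fold. From 100 to 1000, the SD was 0.16 over 11 channel genes and 0.35 over all gene names there, of which 2.56% passed 1.5-fold. Under 100, it was 0.41 over 7 channel genes and 0.61 over all gene names there, of which 16.5% passed 1.5-fold. Median distances from 0 differed less between the channel genes and all gene names of a range. They were 0.047 and 0.065 over 1000, 0.103 and 0.106 from 100 to 1000, and 0.185 and 0.256 under 100. These spreads are across genes and not across animals. Among genes well above background on both arrays, the SD was 0.13 over the 35 channel genes and 0.33 over 25433 gene names, and the median distance from 0 was 0.08 and 0.10.

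**Figure D4:**
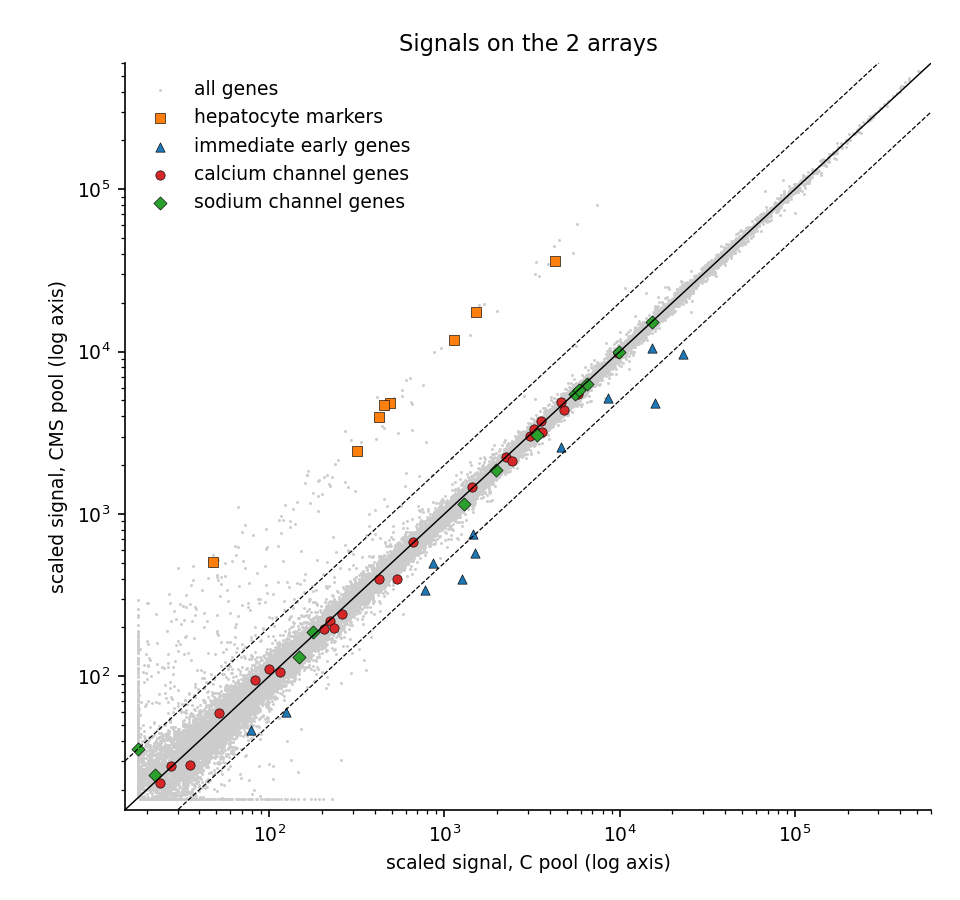
Scaled signal in the C pool against that in the CMS pool on log axes, 1 array per group. Probes dim on 1 array are set there at the larger of their own signal and the background limit. The solid line marks equal signal and dashed lines mark 2-fold. Calcium and sodium channel genes follow the line of equal signal, while hepatocyte markers (median log2 ratio 3.34) lie above it and immediate early genes (median -1.00) below it.

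Other genes of the same arrays stood farther apart between the pools. All 12 immediate early genes listed, which neurons switch on with activity and calcium entry, were lower in the CMS pool, with a median log2 ratio of -1.00, and 6 passed 2-fold. Arc gave 15897 in C and 4838 in CMS, Egr2 gave 1258 in C and 400 in CMS, and Fos 1502 and 574. All 8 hepatocyte markers (Alb, Apoa1 and Ahsg with log2 ratios of 3.53, 3.40 and 3.38) passed 2-fold upward, with a median of 3.34 and a summed signal of 8646 in C and 81692 in the CMS pool. Excitatory neuron markers were well above background for 10 of 10 genes, with a median of 0.04 (Slc17a7, 0.20), and inhibitory neuron markers for 9 of 9, with a median of -0.08 (Gad1, -0.18). The part of these lists in the channel ratios was not tested. Gapdh had a log2 ratio of 0.04.

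Proteins that bind these channels or work beside them were followed as 6 lists of 50 genes, of which 48 gave a ratio. None passed 1.5-fold, against 5.8% of all gene names. The median was -0.06, against -0.03 over all gene names. Ratios lay above 1 for 14 and below 1 for 34, so that 29.2% were above 1 against 41.2% of all gene names. Of the RGK proteins, which reduce calcium channel currents, the activity-dependent Gem gave 76.3 in C and 60.4 in CMS, a log2 ratio of -0.34, and Rem2 had -0.08. The presynaptic scaffold of the P/Q- and N-type channels had a median of -0.03 over 13 genes. The median was -0.000666 over 7 calmodulins and calcium sensors. Over 9 genes of the axon initial segment, where ankyrin and the FGF homologous factors hold and modulate sodium channels, it was -0.00285. All 4 genes of the sodium leak channel with a ratio were below 1, from -0.13 to -0.05, although Unc80 lay above 1 with the mean of all probes. AMPA receptor subunits and their auxiliary proteins, the partners of the TARPs, had a median of -0.09 over 9 genes.

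Other families of channel and receptor genes were set beside these. The median was -0.04 over 83 potassium channel (Kcn) genes, of which 1 passed 2-fold, -0.02 over 26 genes of ionotropic and metabotropic glutamate receptors and -0.02 over 15 GABA-A receptor genes, with none past 2-fold in the last 2 families. The signal was within 20% for 88.0% of the potassium channel genes, 92.3% of the glutamate receptor genes and 93.3% of the GABA-A receptor genes.

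**Figure D5:**
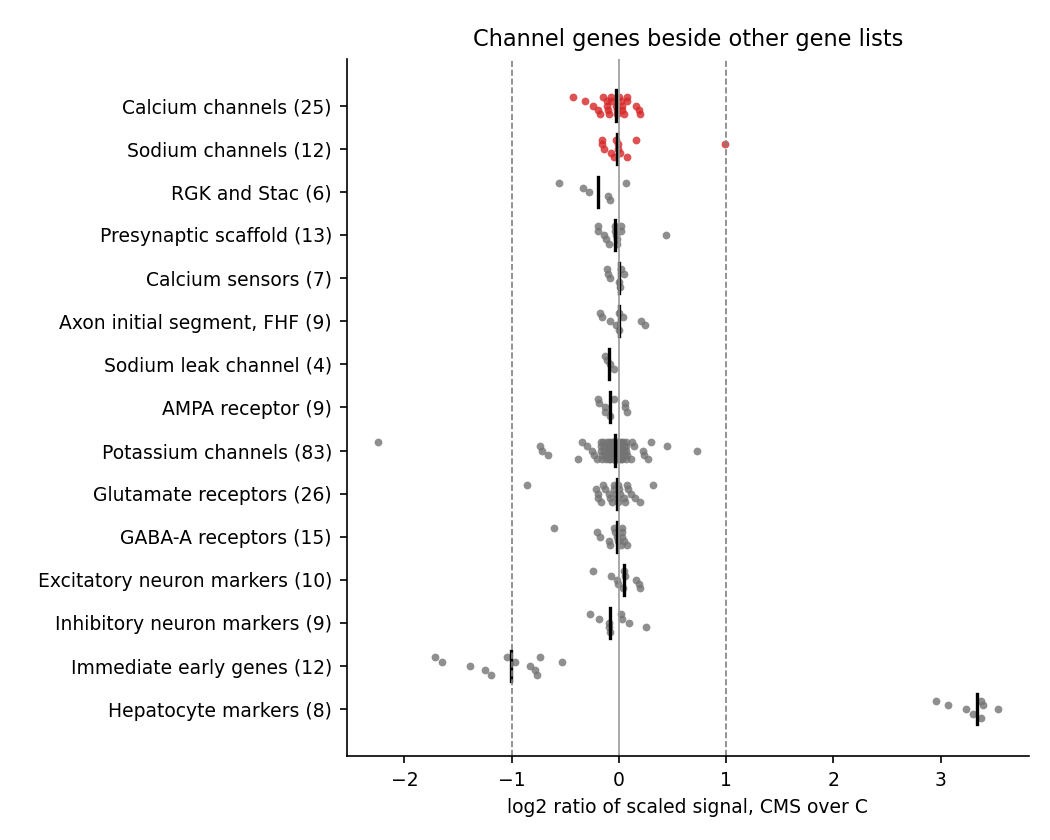
Log2 ratio, CMS over C, of each gene with a ratio in the calcium and sodium channel families (red) and in other lists (grey), with the number of genes in parentheses and medians as black bars. Dashed lines mark 2-fold, and the vertical offset of points carries no value. Medians of the channel, receptor and neuron lists are near 0, those of immediate early genes (-1.00) and hepatocyte markers (3.34) are not.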

How the data were processed

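Total RNA of PFC pools, 1 per group, was labeled with Cy3 and read on 2 arrays of 1 slide. The authors deposited, per spot, the processed intensity of Agilent Feature Extraction 10.10.1.1 (version per the labels), background-subtracted, detrended and not scaled between arrays, with its error and flags, and a further table in which every intensity of an array was multiplied by 1 factor (1.80 and 2.05). The mean intensity per array was 2929 (C) and 2597 (CMS), with 65.2% and 65.9% of 59305 spots well above background and 0 saturated. Precision is limited by the number of arrays, 1 per group.

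Control and outlier spots (130 and 133, none of a channel gene) were left out, spots of each of 55674 probes averaged and arrays multiplied to a mean of 2500. A probe dim on 1 array took the larger of its signal and the lowest signal well above background there. Its fold is a bound where that lowest signal was used. A probe dim on both arrays gave no ratio. Neither did a probe flagged on 1 array alone whose ratio pointed against that array, so the direction of such ratios was fixed. The brightest probe stood for each gene. RefSeq accessions without version were named through the GRCm38.p6 gene table (30740 spots received a symbol). The array design names mm9, and no array coordinates are printed.

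Members of the channel families, gene lists and thresholds were chosen with earlier results of these data known. Lists held channel partners, markers of excitatory and inhibitory neurons, oligodendrocyte precursors, oligodendrocytes, astrocytes, microglia, brain endothelium, skeletal and heart muscle, sensory neurons, retina, striatum, thalamus, cerebellum, hepatocytes and erythroid cells, and immediate early genes. Named are all channel genes, partners past 1.5-fold with Gem and Rem2, the first detected and up to 3 markers past 2-fold per list, and Gapdh. Calls past 2-fold were tested on simulated data, with larger changes planted in genes well above background on both arrays. That test covers neither dim probes nor smaller ratios. Counts and medians are over all channel genes and markers listed, of which a few are not reported here by name. Python 3.11.15, numpy 2.4.6, pandas 2.3.3, matplotlib 3.10.9, and R 4.3.3 with limma 3.58.1 were used.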

Additional observations from a re-analysis of the deposited data

How the results depend on the processing

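Each result was recomputed under 13 alternatives, namely scaling to the 75th percentile, the trimmed mean or the median, no scaling, normexp (offset 50) with quantile normalization, quantile normalization alone, the mean of all probes, outlier spots kept, the deposited table, dim probes without a bound, dim probes dropped if below background on any array, dim probes unfiltered, and centring within 20 bins of signal. A value was taken to have moved beyond the error that the SD between spots gives it, or a count beyond 1.5 times. No paired analysis was possible because each group has 1 array, and no array could be left out for the same reason. The causes of moves were not tested except where stated.

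Without scaling, which by construction takes the median of all genes from -0.03 to -0.20, the calcium channel median was -0.20, the sodium channel median -0.20, and 3 channel genes were above 1, with 14.1% of all gene names. Under median scaling 9 channel genes were above 1, with 33.1% of all gene names. With the mean of all probes the calcium channel median was -0.061. Scn10a made the count past 2-fold 1 under 75th percentile scaling (1.01), trimmed mean scaling (1.01), the deposited table (1.01), no bound (1.30) and no filter (1.30). The count past 1.5-fold was 2 without scaling, where Cacng5 (-0.61) joined it, and 0 under normexp and with dim probes dropped, which leaves Scn10a out. The count of partner genes past 1.5-fold was 1 under median scaling and 1 without scaling, where 5.94% and 7.37% of all gene names passed.

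Of all gene names, 2.58% passed 2-fold, with 1.12% under normexp, 4.02% with no bound, 1.33% with dim probes dropped and 6.91% with no filter. For 1.5-fold, 5.8% became 2.10% under normexp and 12.7% with no filter. Of the values of single channel genes, 435 stayed and 43 moved, 36 of them without scaling. Of the 35 channel genes with a value under all 13 alternatives, 17 kept their sign. Scn10a and Scn7a, flagged in CMS alone, lay above 1 wherever they had a value. In most alternatives a ratio below 1 would have been dropped for them, so their sign there was fixed in advance and shows nothing. For partners, markers and Gapdh, 1779 values stayed and 181 moved. A count of genes beyond 2 SD between spots was chosen after seeing the data. Signal over background limits the dim probes of Scn10a, Scn7a, Cacna1b, Cacna1c and Cacng1.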

Other observations

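Of the proteins around the channels, Stac3, an adaptor of the skeletal muscle calcium channel, and Rims3, a small RIM protein of the presynaptic scaffold, were chosen after their values were seen. The signal of Stac3 was 1094 in C and 742 in CMS, a log2 ratio of -0.56, and -0.59 under median scaling, where it passed 1.5-fold. Rims3 gave 66.8 in C and 90.3 in CMS, a log2 ratio of 0.44. The FGF homologous factors Fgf13 and Fgf14, which bind the tail of sodium channel pores and were also chosen after their values were seen, had log2 ratios of 0.21 and 0.24, while Ank3, the ankyrin that anchors those channels at the axon initial segment, had -0.16.

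Among glial and vascular markers, the median log2 ratio was 0.03 over 5 oligodendrocyte precursor genes (Pdgfra, -0.08), -0.15 over 6 oligodendrocyte genes (Mbp, 0.11), -0.09 over 7 astrocyte genes (Aqp4, 0.04), 0.06 over 6 microglial genes (Aif1, -0.02) and 0.02 over 5 brain endothelial genes (Cldn5, 0.19). Markers of regions beside the PFC had medians of -0.04 over 6 striatal genes (Drd1, -0.22), -0.02 over 5 thalamic genes (Tcf7l2, 0.02) and -0.06 over 3 cerebellar genes (Pcp2, -0.06). Erythroid markers had a median of 0.44 over 4 genes (Hba-a1, 0.41), all above 1.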
